A study of Rattus norvegicus with 4 samples.

Results

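Adora2b and Mrap2 are 2 rat genes of receptor signalling, measured here in INS-1 cells after a week in different glucose concentrations. They were chosen by name from earlier results of these same arrays, as genes with a higher signal at 22.4 mM than at 11.2 mM glucose. Each is named alone by 1 probe set, a group of array probes summarised into a single value, so 2 of 36685 probe sets and 2 of 14557 genes with 1 symbol are described. INS-1 is an insulin-secreting line from a rat insulinoma, used as a model of the pancreatic beta cell. One group was kept in 11.2 mM glucose and the other in 22.4 mM glucose for 7 days, with 2 Affymetrix arrays in each group and no other treatment or genetic change named in the labels. The labels call the condition glucotoxic and do not say whether replicates were separate cultures. The errors below thus measure the spread between arrays, which may be technical. Standard errors (SE) come from a fit of all probe sets, which draws the spread of each toward that of all.

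Adora2b encodes the A2B adenosine receptor, a cell-surface receptor that couples to the stimulatory G protein and so raises cyclic AMP, and that can also couple to Gq. It has a low affinity for adenosine and is known to respond where adenosine accumulates outside cells, as in hypoxia or injury. Mrap2 encodes melanocortin receptor accessory protein 2, a small membrane protein with a single membrane-spanning stretch that binds other receptors rather than a ligand. In mice and in transfected cells it is known to change signalling by the melanocortin 4 receptor and to enhance signalling by the ghrelin receptor, and in transfected cells to lower signalling by prokineticin receptors.

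Both genes had a higher signal on each 22.4 mM array than on either 11.2 mM array. All levels are log2 signals as the authors deposited them, on which a difference of 1 is a 2-fold change. Adora2b (probe set 17646654) had a log2 signal of 6.64 in replicate 1 and 6.87 in replicate 2 of 11.2 mM, and of 8.29 and 8.21 in those of 22.4 mM. The 11.2 mM arrays were thus low, the 22.4 mM arrays high, and the groups did not overlap. The group means were 6.75 ± 0.158 (SD, n = 2) and 8.25 ± 0.0551 (SD, n = 2). They differed by 1.50 on the log2 scale (SE 0.121), or 2.83-fold. Over the 4 possible pairings of a 22.4 mM array with an 11.2 mM array, the difference ran from 1.35 to 1.65.

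Mrap2 (probe set 17846431) had a log2 signal of 5.98 and 6.57 at 11.2 mM and of 7.97 and 8.01 at 22.4 mM. The 22.4 mM arrays lay close together and above both 11.2 mM arrays, of which replicate 1 was clearly the lower. The group means were 6.28 ± 0.418 (SD, n = 2) and 7.99 ± 0.0297 (SD, n = 2). They differed by 1.71 on the log2 scale (SE 0.214), or 3.27-fold. Its pairings ran from 1.39 to 2.03, or 2.63-fold to 4.08-fold. No background level is given in the sources used here, so neither gene was shown to be above background at 11.2 mM. Such a limit would make the folds given here too small rather than too large.

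These differences chose the genes, so they are given as a description, with no test and no independent measure of the same contrast to set beside them. Ranked from the largest positive difference down, Mrap2 stood at place 9 and Adora2b at place 17 of the 14557 genes with 1 symbol. Groups without overlap were common: 44.6% of these genes had none, 21.5% with higher and 23.1% with lower signals at 22.4 mM. A lack of overlap together with a difference of at least 2-fold higher was met in 63 genes, or 0.433%, among them both members by their choice.

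**Figure D1:**
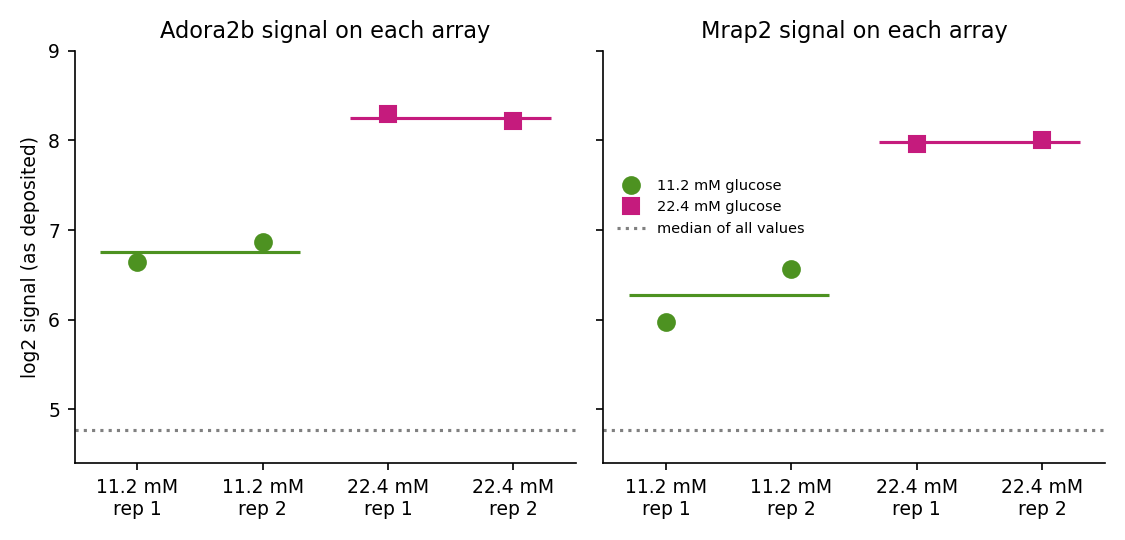
Log2 signal (y axis, as deposited) of Adora2b and Mrap2 on each of the 4 arrays (x axis); points are arrays, solid lines group means and the dotted line the median of all values. The 22.4 mM arrays sit between 7.97 and 8.29 and the 11.2 mM arrays between 5.98 and 6.87, and the wider spread of Mrap2 at 11.2 mM is visible.

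**Figure D2:**
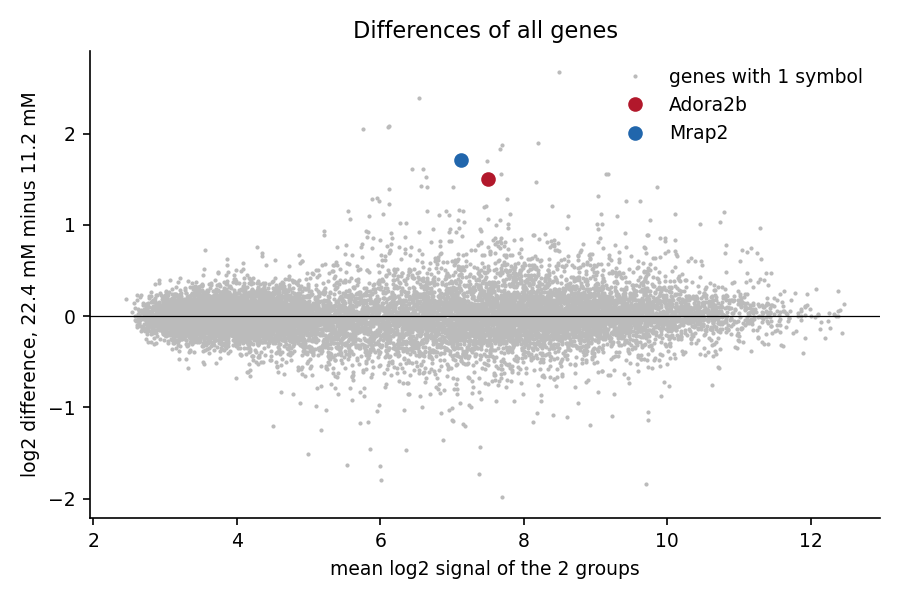
Log2 difference, 22.4 mM minus 11.2 mM (y axis), against the mean log2 signal of both groups (x axis) for 14557 genes with 1 symbol; each grey point is a gene. Mrap2 at 1.71 and Adora2b at 1.50 lie near the upper edge, while 90% of genes lie between -0.35 and 0.37.

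The members differed in how far the 11.2 mM arrays agreed. Replicate 2 exceeded replicate 1 of 11.2 mM by 0.22 in Adora2b and by 0.59 in Mrap2, where the median gap between these arrays over all probe sets was 0.15 in size. The gap of Mrap2 was larger than that of 94.1% of probe sets, and the gap of Adora2b larger than that of 65.7%. At 22.4 mM the gaps were -0.078 and 0.042, below the median size of 0.12. Replicate 1 of 11.2 mM also stood apart across the array: its mean absolute log2 difference from the other arrays was 0.213 to 0.246, against 0.172 to 0.195 among those. Replicate 2 of 11.2 mM was nearer to the 22.4 mM arrays (0.188 and 0.195) than to replicate 1 of 11.2 mM (0.213). Over all probe sets the 22.4 mM arrays were thus the nearest pair (0.172), while the 11.2 mM arrays did not group together. Without replicate 1 of 11.2 mM, the differences of the members were nearly equal, 1.39 (SE 0.110) in Adora2b and 1.42 (SE 0.106) in Mrap2. Without replicate 2 of 11.2 mM they were 1.61 (SE 0.110) and 2.01 (SE 0.106), so the larger difference of Mrap2 came with the low value on replicate 1. Without replicate 1 or replicate 2 of 22.4 mM, Adora2b differed by 1.46 or 1.54 and Mrap2 by 1.73 or 1.69. In each fit with an array left out, the remaining lone array is assumed to vary like the other group.

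**Figure D3:**
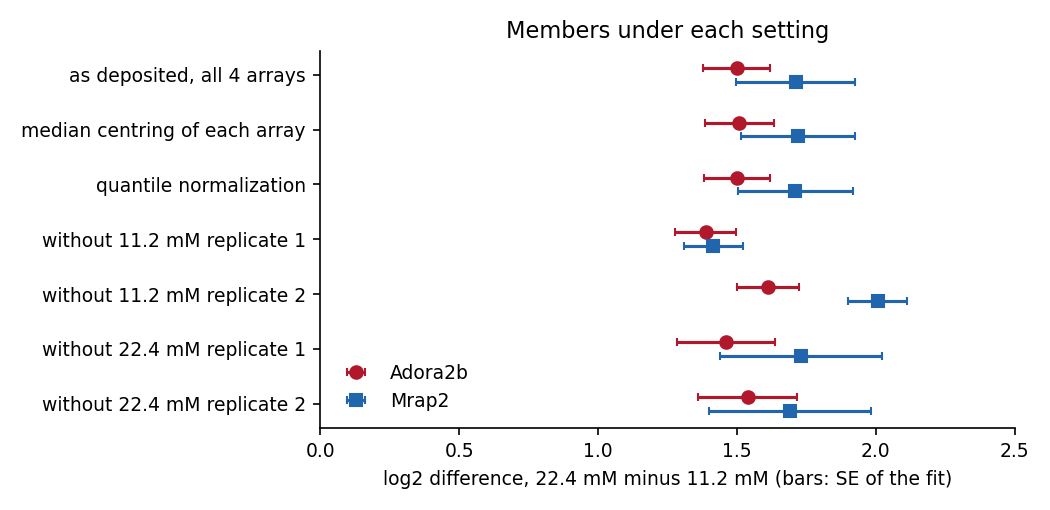
Log2 difference, 22.4 mM minus 11.2 mM (x axis), of Adora2b and Mrap2 under each normalization and with each array left out (y axis); bars are the standard error of the fit. Adora2b stays between 1.39 and 1.61, and Mrap2 between 1.42 and 2.01.

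The start regions of these genes are shown because the genes were high on the same arrays, and they are unlike each other in base composition. Both were found in a RefSeq table of build GRCr8, as the 250 bases before and 50 after the annotated gene start, on the plus strand, at chr10:47439462-47439761 for Adora2b and chr8:96967989-96968288 for Mrap2. Capitals mark matches, on either strand, to the GC box GGGCGG, the CCAAT box or the TATA box TATAAA.
Adora2b: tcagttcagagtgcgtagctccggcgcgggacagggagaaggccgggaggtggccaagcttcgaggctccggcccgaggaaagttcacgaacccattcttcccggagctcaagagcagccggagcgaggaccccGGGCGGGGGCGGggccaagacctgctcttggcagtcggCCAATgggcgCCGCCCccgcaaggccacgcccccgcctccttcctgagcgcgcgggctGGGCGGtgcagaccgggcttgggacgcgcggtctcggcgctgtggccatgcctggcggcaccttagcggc
Mrap2: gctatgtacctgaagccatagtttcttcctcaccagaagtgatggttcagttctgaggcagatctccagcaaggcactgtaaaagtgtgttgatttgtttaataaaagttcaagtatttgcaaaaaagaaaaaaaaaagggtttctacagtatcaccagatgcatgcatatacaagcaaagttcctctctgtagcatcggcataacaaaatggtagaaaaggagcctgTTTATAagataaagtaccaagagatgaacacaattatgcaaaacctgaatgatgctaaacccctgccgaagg
The Adora2b window was 72% G and C with 33 CpG dinucleotides, and the Mrap2 window 38.7% with 2, where the medians of 27457 rat windows were 52.3% and 7. Adora2b held 4 GC boxes and 1 CCAAT box, which occur in 34.9% and 37.7% of all windows, and Mrap2 held 1 TATA box match, as do 14.3%. The match in Mrap2 reads TTTATA as shown, so TATAAA lies on the strand opposite to the gene. Neither window held the hypoxia response core ACGTG (19.7% of windows), the E-box CACGTG that carbohydrate response elements are built from and that contains ACGTG (6.65%), or the cyclic AMP response core TGACG (22.0%) and its full form TGACGTCA (1.91%). Such matches are letters in a window and not shown binding sites. RefSeq lists 8 transcripts of Mrap2 and 1 of Adora2b, and other starts of Mrap2 were not searched.

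Genes beside the members on the chromosome were read for comparison, by position alone. Of the 3 nearest measured protein-coding genes on either side of each member, 12 in all, 0 passed limma's test at a Benjamini-Hochberg adjusted p under 0.05 (lowest adjusted p = 0.485). Their log2 differences lay between -0.21 and 0.43, far below those of the members. The groups did not overlap in 5 higher and 2 lower of the 12, where the shares of all genes were 21.5% and 23.1%. The largest beside Adora2b was that of Trpv2 (17646695), a cation channel, at 0.41 (SE 0.131), and 0.27 without replicate 1 of 11.2 mM. The nearest measured gene before Adora2b, Akap10 (17657095), an anchoring protein of the cyclic AMP-dependent kinase, differed by -0.21 (SE 0.101), and the nearest after it, Zswim7 (17657114), by -0.18 (SE 0.151). The latter was -0.052 or -0.049 without replicate 1 of 11.2 mM or of 22.4 mM, and -0.31 without replicate 2 of either. Beside Mrap2 the largest was that of Cep162 (17854478), a centrosomal protein, at 0.43 (SE 0.160), and 0.24 without replicate 1 of 11.2 mM. On its other side Cyb5r4 (17846407), a cytochrome b5 reductase, differed by 0.058 (SE 0.0997). The other 7 were Ulk2 and Fam83g before Adora2b, Cenpv after it, Ripply2 and Prss35 before Mrap2, and Tbx18 and Snx14 after it.

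Around the members, genes of their pathways were read from 10 lists that hold neither Adora2b nor Mrap2. The array named 105 of the 137 genes on them. After Benjamini-Hochberg adjustment, limma's test passed 0 of 36685 probe sets (0%) and so 0 of the 105, of which Prok2 had the lowest adjusted p at 0.218. In simulated data the same fit called 3 of 100 probe sets shifted 2-fold, so not passing does not show a gene unchanged. At an unadjusted p under 0.05 there were 23 of the 105, and 3344 of all 36685 probe sets (9.12%). These 36685 include 21032 unnamed ones, so the counts are not over like sets. The lists were also chosen with earlier results of these data known. Limma with a trended and robust prior also called 0 past the adjusted threshold. A fit of the 14824 probe sets with 1 symbol called 62, among them 3 list genes, Prok2, Egln3 and Ramp1. It had 1912 at an unadjusted p under 0.05. Positive differences were found in 45 of the 105, against 48.9% of all genes with 1 symbol. Of the 105, only Prok2 differed by as much as Adora2b in either direction.

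The other adenosine receptors measured differed less than Adora2b, and in opposite directions. Adora1 (17684321), the inhibitory A1 receptor, had log2 signals of 8.61 and 8.49 at 11.2 mM and of 8.96 and 8.999 at 22.4 mM. Its groups did not overlap, and its difference of 0.43 (SE 0.101) was below that of Adora2b, with limma adjusted p = 0.384. Adora2a (17757925), a receptor that like A2B couples to the stimulatory G protein, had 5.57 and 5.63 against 5.20 and 5.42. It lay lower at 22.4 mM without overlap, by -0.29 (SE 0.118, limma adjusted p = 0.566), and by -0.18 without replicate 1 of 22.4 mM. Both probe sets that name the A3 receptor gene Adora3 carry another symbol too, so no value is given for it.

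Genes that make, break down or carry adenosine showed 0 of 18 past the test, with 4 positive and 14 negative differences and a median of -0.053, where the median of all genes was -0.0038. Leaving out replicate 1 of 11.2 mM gave a median of 0.0052. Nt5e (17846440), the ectoenzyme that makes adenosine from AMP outside the cell, had 7.02 and 6.90 at 11.2 mM and 6.91 and 6.96 at 22.4 mM. Its groups overlapped. On the higher side without overlap stood Ada, which deaminates adenosine, with 0.21 (SE 0.0945), and the nucleoside transporter Slc29a2 with 0.11 (SE 0.0965). On the lower side stood Alpl, a phosphatase that also acts on nucleotides, with -0.53 (SE 0.171), and the membrane transporter Slc29a4 with -0.40 (SE 0.116).

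Downstream of the A2B receptor, G proteins, adenylate cyclases, phospholipases and cyclic AMP effectors showed 0 of 16 past the test, 11 positive and 5 negative, and a median of 0.074. With an array left out the median ran from 0.0155 without replicate 1 of 11.2 mM, and 0.029 without replicate 2 of 22.4 mM, to 0.16 without replicate 2 of 11.2 mM. Gnas (17769406), the stimulatory G protein itself, had log2 signals of 7.75 and 7.54 against 7.82 and 8.13, a difference of 0.33 (SE 0.154) that was 0.17 without replicate 2 of 22.4 mM. Of the adenylate cyclases, which make cyclic AMP, the calcium-stimulated Adcy1 was on the higher side by 0.44 (SE 0.133). Adcy8, also stimulated by calcium, lay on the lower side by -0.46 (SE 0.0988), as did Adcy5 by -0.30 (SE 0.0961). These cyclases were picked for a lack of overlap, up to 2 genes of the list per direction. Of the other cyclases measured, Adcy2 differed by 0.15, Adcy6 by -0.19 and Adcy7 by -0.12. Adcy3, whose groups overlapped, differed by 0.081.

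Genes known to be induced by cyclic AMP showed 0 of 15 past the test, 5 positive and 10 negative, with a median of -0.17. It was -0.0087 when replicate 1 of 11.2 mM was left out and -0.37 when replicate 2 was, and -0.10 and -0.30 without replicates 1 and 2 of 22.4 mM. The nuclear receptor Nr4a1 (17832476) had 6.99 on replicate 1 of 11.2 mM and 6.07, 5.97 and 6.04 on the other arrays. Its difference of -0.52 (SE 0.317) was -0.060 without that array and -0.99 without replicate 2 of 11.2 mM. The kinase Sik1 differed by -0.49 (SE 0.168), which became -0.29 when replicate 1 of 11.2 mM was left out. Pde3b had 9.82 and 9.91 against 9.47 and 9.32, lower by -0.47 (SE 0.109), and replicate 1 of 11.2 mM was not the higher of its group. Irs2 lay lower by -0.31 (SE 0.102). Of the 15, 5 lay lower and 2 higher without overlap, where the shares of all genes were 23.1% and 21.5%. Nr4a2, the related nuclear receptor, was the 1 gene at or above the median signal that lay higher without overlap, by 0.30 (SE 0.189), which was 0.047 when replicate 1 of 11.2 mM was left out and 0.55 when replicate 2 was.

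Hypoxia response genes were read because Adora2b is known in human and mouse cells as a target of hypoxia-inducible factors. Of these, 0 of 10 passed, with 5 positive and 5 negative and a median of -0.022. The sign of that median is not settled: it was -0.083 and 0.026 without replicates 1 and 2 of 11.2 mM, and 0.0045 and -0.059 without those of 22.4 mM. Egln3 (17821879), an oxygen-sensing prolyl hydroxylase, had log2 signals of 5.93 and 5.79 at 11.2 mM and of 7.11 and 7.46 at 22.4 mM. Its difference of 1.43 (SE 0.154) was close in size to that of Adora2b. Pdk1, a kinase that inhibits pyruvate dehydrogenase, differed by 0.68 (SE 0.127). The glucose transporter Slc2a1 lay on the lower side by -0.45 (SE 0.118), as did Bnip3, a mitophagy protein, by -0.35 (SE 0.141), and the latter by -0.19 without replicate 1 of 11.2 mM.

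The measured genes of the melanocortin system had small differences and mostly dim signals. Of these, 0 of 7 passed, with differences between -0.14 and -0.013, and 5 of the 7 lay below the median of all values, 4.77, in both groups. Mrap (17664603), the only other member of the accessory protein family and a partner of the ACTH receptor, had 4.32 and 4.29 at 11.2 mM and 4.33 and 4.23 at 22.4 mM. These overlap, and its difference of -0.021 (SE 0.0992) stands beside 1.71 for Mrap2. The receptors Mc1r, Mc2r, Mc3r and Mc5r differed by -0.097, -0.10, -0.013 and -0.017 (SE from 0.0970 to 0.143). Pomc, the precursor of the melanocortin peptides, differed by -0.14 (SE 0.124), and Agrp, an antagonist of melanocortin receptors, by -0.068 (SE 0.133). No probe set used here named the melanocortin 4 receptor alone.

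The ghrelin receptor Ghsr (17737485) had log2 signals of 4.80 and 4.81 at 11.2 mM and of 4.77 and 4.94 at 22.4 mM, which overlap. Its difference was 0.045 (SE 0.108), that of ghrelin itself, Ghrl, was 0.036 (SE 0.0937), and that of Mboat4, which acylates ghrelin, was 0.012 (SE 0.104). Thus 0 of 3 passed, all 3 were positive, and at such dim signals neither the size nor the sign is settled.

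Among prokineticins, orexin and their receptors, 0 of 6 passed, 3 positive and 3 negative, with a median of 0.081. That median was 0.0099 and 0.15 without replicates 1 and 2 of 11.2 mM, and 0.14 and 0.020 without those of 22.4 mM. The orexin gene itself is not among the 6. Prok2 (17793620), the ligand prokineticin 2, had 6.90 and 7.40 at 11.2 mM and 9.78 and 9.87 at 22.4 mM, a difference of 2.67 (SE 0.191). Its groups lay farther apart than those of either member. Its receptor gene Prokr2 (17777539) had 4.94 and 4.91 against 5.37 and 5.39, a difference of 0.45 (SE 0.0934) without overlap. Prok1, the related ligand, differed by -0.36 (SE 0.0961), lower on both 22.4 mM arrays. The signals of Prokr2 at 11.2 mM and of Prok1 at 22.4 mM lay near the median of all values, 4.77, so these sizes are not exact.

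Other receptor accessory proteins, which help receptors reach or act at the membrane, showed 0 of 11 past the test, 7 positive and 4 negative, with a median of 0.069 that was -0.018 without replicate 2 of 11.2 mM. Ramp1 (17861575), a partner of the calcitonin receptor-like receptor, was the gene of this list nearest to Mrap2 in difference. It had log2 signals of 4.81 and 4.74 at 11.2 mM and of 5.68 and 5.64 at 22.4 mM, a difference of 0.89 (SE 0.0968) without overlap. Its signals at 11.2 mM lay near the median of all values, so the size is not exact. Reep1 differed by 0.16 (SE 0.0958), Reep6 by -0.19 (SE 0.107) and Rtp1 by -0.15 (SE 0.117). The last of these differed by -0.044 without replicate 1 of 11.2 mM and by -0.26 without replicate 2.

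Of the other G protein-coupled receptors of islets 0 of 17 passed, with a median of -0.079 and no difference above 0.48. Positive differences were found in 6 of the 17, where 48.9% of all genes had one. The groups did not overlap in 3 higher and 7 lower, where the shares of all genes were 21.5% and 23.1%. The glucagon receptor Gcgr (17653335) had 9.15 and 8.91 against 9.56 and 9.47, the largest positive difference at 0.48 (SE 0.124), and the somatostatin receptor Sstr1 differed by 0.45 (SE 0.139). The incretin receptor Gipr lay lower by -0.66 (SE 0.105) and the purine receptor P2ry1, which binds ADP, by -0.53 (SE 0.102). Leaving out replicate 1 of 11.2 mM gave a median of -0.17, and leaving out replicate 1 of 22.4 mM gave -0.14.

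**Figure D4:**
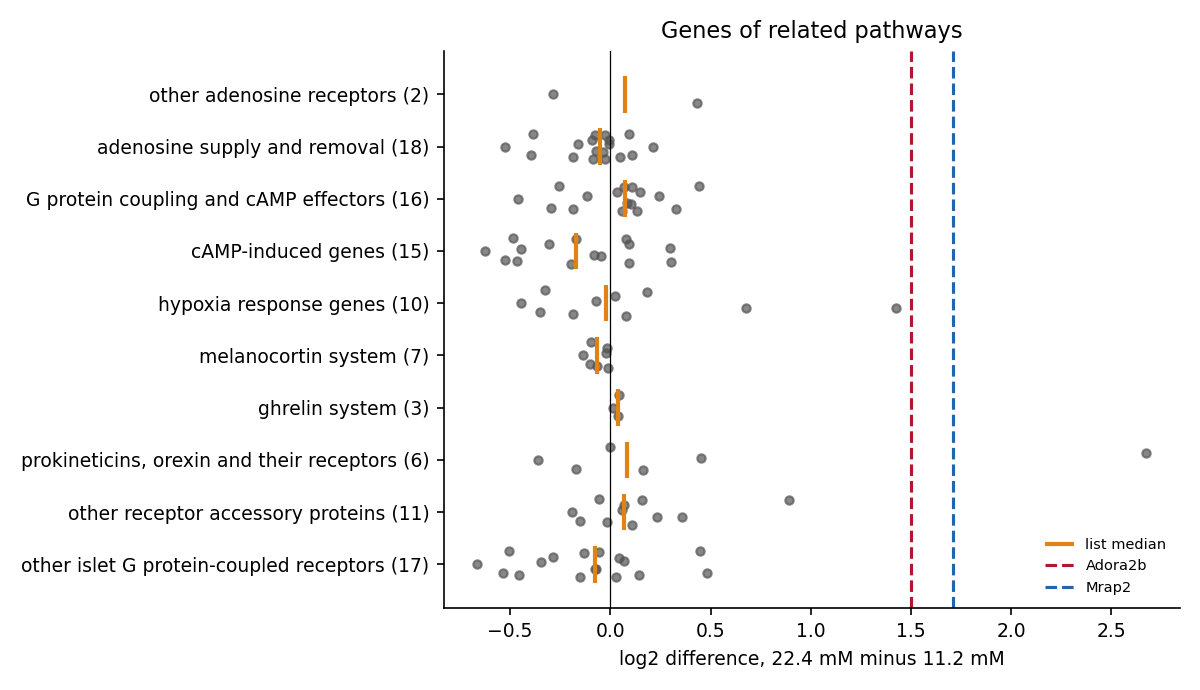
Log2 difference, 22.4 mM minus 11.2 mM (x axis), of the measured genes of 10 lists (y axis, number of genes in brackets); points are genes, orange bars list medians and dashed lines the members. Prok2 at 2.67 is the 1 point beyond Adora2b, and Egln3 at 1.43 and Ramp1 at 0.89 lie nearest below.

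The genes whose pattern was most like each member were found by the distance between log2 profiles over the 4 arrays, each gene taken minus its own mean, among 14188 genes. A choice by likeness makes all of them higher at 22.4 mM without overlap. Nearest to Adora2b were the scaffold protein Cnksr2 (distance 0.133), the sodium/proton exchanger Slc9b2 (0.137), the nuclease-like Eepd1 (0.182), the phospholipase Pla2g2f (0.205) and the glucose transporter Slc2a4 (0.224), with differences from 1.39 to 1.61. Nearest to Mrap2 were the potassium channel subunit Kcnab3 (0.102), the choline dehydrogenase Chdh (0.141), the RNA-editing enzyme Adarb1 (0.211), Slc9b2 (0.236) and the interleukin receptor Il17rb (0.256), with differences from 1.53 to 1.90. Adora2b and Mrap2 stood at place 13 in each other's order, at a distance of 0.346. Cnksr2 (17872391) had log2 signals of 5.72 and 5.87 against 7.40 and 7.40, with a smaller gap at 11.2 mM than Adora2b. Kcnab3 (17647444) had 6.40 and 6.86 against 8.29 and 8.37, with replicate 1 of 11.2 mM lower than replicate 2. With 4 arrays many genes lay higher without overlap (21.5%), and the distance also counts the size of the difference. The nearest genes are thus mostly others with large differences, like those that chose the members.

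**Figure D5:**
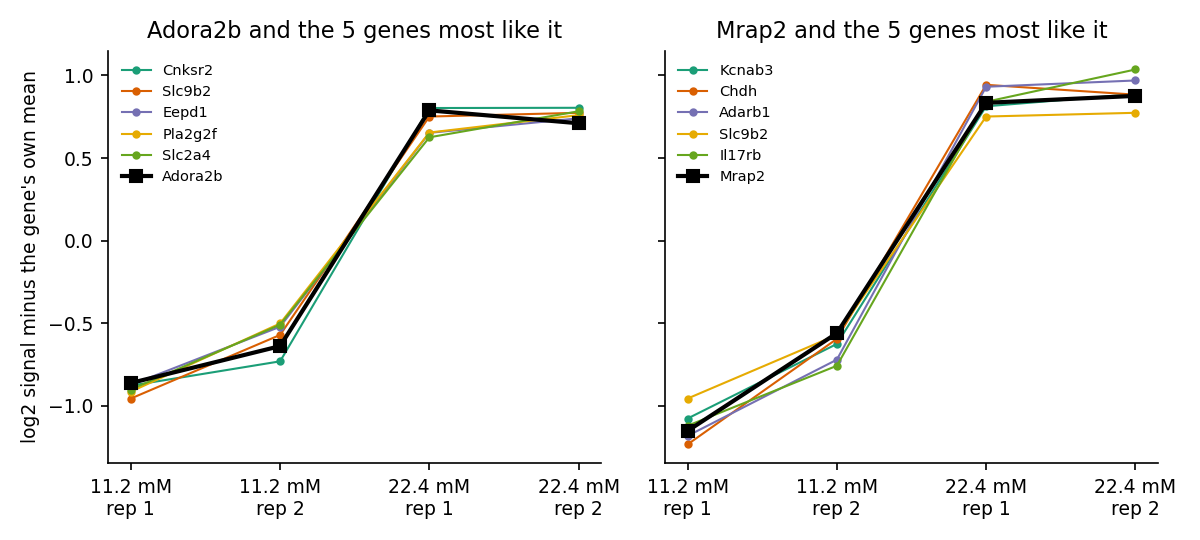
Log2 signal minus the gene's own mean (y axis) on each of the 4 arrays (x axis) for each member (black squares) and the 5 genes nearest to it (coloured circles). Every line lies below 0 at 11.2 mM and above it at 22.4 mM, and in both panels every line is lower on replicate 1 than on replicate 2 of 11.2 mM, by 0.22 in Adora2b and by 0.59 in Mrap2.

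The arrays showed the labelled cell type. All 12 measured beta cell markers of 20 listed lay above the median of all values in at least 1 group, and their mean log2 signal was 10.66 to 10.74 over the 11.2 mM arrays and 10.34 to 10.39 over the 22.4 mM arrays. Markers of immune cells (11 measured) had means of 4.0 to 4.09 and 4.06 to 4.09, those of stromal and endothelial cells (10 measured) 4.26 to 4.30 and 4.23 to 4.24, and those of acinar and ductal cells (10 measured) 4.58 to 4.67 and 4.64 to 4.65. Of these, 10 of 11, 6 of 10 and 8 of 10 lay below that median in both groups. The brightest exceptions were Cd4 (6.08 to 6.68), Pdgfra (5.98 to 6.72) and the keratin Krt7 (8.67 to 8.86). Other islet hormones had means of 4.93 to 5.08 and 5.03 to 5.05, with 7 of 8 below that median and the glucagon gene Gcg bright at 11.07 to 11.24. Medians of the differences of the 4 lists of other cell types lay between -0.055 and 0.028. The beta cell list had a median of -0.21, with 9 of 12 negative, 8 lower without overlap and 1 higher, and 0 past the test. Of all genes with 1 symbol, 48.9% had a positive difference, and 23.1% lay lower and 21.5% higher without overlap. The lowest difference of the beta cell list was that of the insulin gene Ins2, -1.84 (SE 0.106). The other insulin gene, Ins1, was the 1 that lay higher without overlap, by 0.18 (SE 0.115). Chgb and Nkx6-1, whose groups overlapped, differed by 0.061 and 0.014. Most beta cell markers were thus lower where the members were higher, and the part of any of these lists in the signals of Adora2b and Mrap2 was not tested.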

How the data were processed

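Total RNA of INS-1 cells was extracted on silica columns, amplified and hybridized as labelled single-stranded cDNA to 4 Affymetrix arrays, 2 for each glucose concentration, per the labels' protocols. The authors deposited 1 table of log2 values for 36685 probe sets. Base 2 was inferred from their range, 2.23 to 13.2, and the software, background correction and normalization behind them are not stated in the labels. The values were used as deposited, and the number of arrays limits the precision (median SE 0.121). Gene symbols came from the platform annotation, which can be old: 14824 probe sets have 1 symbol, 829 several and 21032 are unnamed here. The brightest probe set stood for a gene.

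Differences are 22.4 mM minus 11.2 mM, from limma 3.58.1 under R 4.3.3 (eBayes defaults, Benjamini-Hochberg over all probe sets, threshold 0.05). Its two-sided tests used 2 residual degrees of freedom plus those of the eBayes prior. Each SE is moderated by that prior, which draws it toward the spread of all probe sets. Tables and plots were made with Python 3.11.15, pandas 2.3.3 and matplotlib 3.10.9. The code was tested on simulated data of 36685 probe sets. At the threshold it called 3 of 100 shifted by 1 on the log2 scale, or 2-fold. It called 81 of 100 shifted by 2, and 8 of 36485 not shifted. Adjusted p depends on how many probe sets are shifted, and the arrays held few differences that large. Mrap2 at 1.71 stood at place 9 of 36685 from the largest positive difference down, and Prok2 at 2.67 did not pass. The 81 of 100 is therefore not a rate for these arrays. A gene that did not pass can thus still differ by 2-fold. The members and lists were chosen with earlier results of these data known. Named genes were the members, every measured gene of the adenosine receptor, melanocortin and ghrelin lists, and in other lists up to 2 largest differences per direction without overlap and at or above the median signal of 4.77. The 5 genes most like each member were also named. Position neighbours, Nt5e, Pde3b, Irs2 and named cell type markers other than Ins1 and Ins2 were added after values were seen. Alternatives were other normalizations, other probe sets, a trended prior, a replicate block and each array left out. Promoter sequences are RefSeq's, build GRCr8.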

Additional observations from a re-analysis of the deposited data

How the results depend on the processing

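Adora2b and Mrap2 were recomputed under 2 normalizations and without each of the 4 arrays. The groups do not overlap, so leaving out an array cannot turn their direction. With quantile normalization they differed by 1.50 and 1.71, with median centring by 1.51 and 1.72, and with an array left out by 1.39 to 1.61 and 1.42 to 2.01. Each has 1 probe set, so a mean over probe sets was not run for them. The fit of probe sets with 1 symbol called 62, 43 higher and 19 lower, where all others tried called 0, those without an array included (0 to 0). The replicate block also called 0, with 2958 at an unadjusted p under 0.05. Replicate numbers are shared in the labels alone, and deviations of same-numbered arrays correlated at -0.078 over probe sets.

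List medians with an array left out ran from -0.078 to 0.0052 for adenosine supply, 0.0155 to 0.16 for G protein coupling, -0.37 to -0.0087 for cyclic AMP-induced genes, -0.083 to 0.026 for hypoxia genes and -0.055 to -0.037 for melanocortin genes. They ran from 0.017 to 0.055 for ghrelin genes, 0.0099 to 0.15 for prokineticins and orexin, -0.018 to 0.067 for accessory proteins, -0.17 to -0.089 for islet receptors and 0.0089 to 0.14 for other adenosine receptors.

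Over 50 other named genes, 469 of 488 values kept direction and side of the threshold. Much of this was fixed in advance. Fits with other probe sets, a trended prior or a replicate block leave the difference itself unchanged. Genes named for groups without overlap cannot change direction when an array is left out. Prok2, Egln3 and Ramp1 passed in the fit of probe sets with 1 symbol (limma adjusted p = 0.0126, 0.0297 and 0.0332). Small differences changed sign with an array left out: Mrap ran from -0.072 to 0.030, Mc2r from -0.25 to 0.047, Mc3r from -0.060 to 0.033, Mc5r from -0.050 to 0.017, Agrp from -0.19 to 0.056, Ghsr from -0.040 to 0.13 and Mboat4 from -0.042 to 0.066. So did those of Ripply2, from -0.23 to 0.080, Prss35, from -0.12 to 0.096, and Snx14, from -0.13 to 0.036. The cause was not tested. The number of arrays limits what such small differences can show.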
